A study of Mus musculus with 31 samples.

Results

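Cmbl, Sh2d1b1, Sort1, Unc119, Kctd12b and Bcap31 are 6 genes whose RNA was much lower in resting macrophages of PPARγ knockout (KO) mice than in resting control macrophages. They were chosen by their log2 difference in untreated cells, as large decreases in KO against control libraries, and then taken from the table by name. The deposited table lists 24302 gene symbols, of which 10327 had at least 1 FPKM in at least 3 libraries and were tested. All 6 genes passed that filter, Sh2d1b1 through control libraries alone. FPKM counts the fragments of a gene per kilobase of its length, scaled to the library size; each library was then divided by its median ratio to the geometric means of the genes, and the result is called rescaled FPKM. The untreated libraries chose the genes, so untreated differences are described without a test. The libraries with DMSO, rosiglitazone or IL4 did not enter the choice and carry the tests.

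PPARγ is a nuclear receptor that binds DNA as a pair with a retinoid X receptor and is activated by fatty acids and by drugs such as rosiglitazone. In macrophages it is known for genes of lipid uptake and storage, and IL4, a cytokine that drives alternative activation, raises its expression. A target gene can depend on the receptor at rest, gain RNA when a ligand is added, or both. The genes described here have unlike roles. Cmbl encodes a cytosolic serine hydrolase, known in humans for cleaving an antihypertensive prodrug. Sh2d1b1 encodes an adaptor that binds the phosphorylated tails of SLAM family receptors, studied mostly in natural killer and antigen-presenting cells. Sort1 encodes sortilin, a receptor that carries cargo such as progranulin, prosaposin and lipoprotein lipase between the Golgi, endosomes and the cell surface. Unc119 encodes a carrier that shields the myristoyl group of lipidated proteins, Src family kinases among them. Bcap31 encodes a membrane protein of the endoplasmic reticulum that helps to export or retain other membrane proteins and is cut by caspase 8. Kctd12b belongs to the KCTD family, whose member Kctd12 is an auxiliary subunit of GABA type B receptors.

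The cells were peritoneal macrophages of C57BL/6 mice aged 8.5 weeks, drawn out with 3% thioglycollate, collected 4 days later and cultured overnight. Control mice and mice labelled PPARgammaMPKO, a macrophage knockout of PPARγ, gave 4 animals each per the series' design text; the driver of the deletion and the deleted exons are not stated in the sources used here. Each genotype had an untreated group and groups exposed over 24 h to DMSO (the vehicle), rosiglitazone at 1 uM, or IL4 at 20 ng/mL. The 8 groups hold 31 libraries, 16 from control and 15 from KO mice; every group has 4 except the KO rosiglitazone group, which has 3. The same numbers recur across treatments within a genotype, so the treated libraries are other cultures but not other mice, and p-values measure the spread between these libraries.

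The sources used here state no read totals, so no interval for counting error is given. The listed FPKM summed to between 150719 and 305601 per library, and 3 libraries, KO untreated 2 and 3 and control IL4 2, had the lowest sums. Pparg itself had 47.2 to 53.6 rescaled FPKM in untreated control and 37.6 to 50.9 in untreated KO libraries. These ranges overlap, and a value over the whole gene cannot show the loss of single exons, so it does not check the labels. The 8 macrophage markers summed to between 995 and 1404 rescaled FPKM over all libraries, most of it Cd68. Among them, Mertk (-0.65, -1.06 and -0.56) and Fcgr1 (-0.73, -0.71 and -1.06) were lower and Cd14 (0.52, 1.37 and 0.57) higher in KO cells with DMSO, rosiglitazone and IL4 (log2 differences, limma adjusted p at most 0.00710). Among the markers of other cells, the 13 of natural killer and T cells summed to at most 1.39 in any library, and 5 to 10 of them were at 0 in every library of a group. The 6 dendritic cell markers had low sums, higher in KO than in control libraries without overlap in each of the 4 treatments. They were 0.187 to 0.683 in untreated control and 0.689 to 1.10 in untreated KO libraries, and 0.554 to 1.04 against 1.25 to 2.44 with IL4. The 8 mesothelial markers summed to 1.34 to 7.06 in untreated control against 6.30 to 12.6 in untreated KO libraries, and to 2.27 to 10.6 against 10.0 to 40.5 with IL4. Neutrophil marker sums were 13.8 to 17.0 in control and 9.26 to 12.8 in KO cells with DMSO, 20.2 to 29.5 against 8.32 to 11.9 with rosiglitazone, and 11.5 to 21.6 against 4.24 to 7.58 with IL4. Only 3 neutrophil markers were listed, 1 or 2 of them at 0 in every library of a group. Most of each sum was S100a8, with a mean of 15.5 in control cells with DMSO, so these sums describe mainly that gene. The 6 markers of resident large peritoneal macrophages summed to 2.05 to 3.06 in untreated control and 4.11 to 5.20 in untreated KO libraries, and the genotypes did not overlap in the 3 treatments either (at most 3.78 in control and at least 3.83 in KO libraries). Icam2, the largest of these 6 in untreated cells, had means of 1.69 in control and 1.68 in KO cells. Serpinb2 had means of at most 0.255 in control and at least 1.14 in KO groups, so these sums do not describe a shift of every marker. The part of these other cell types in the results was not tested. In bulk RNA, fewer cells of a type and less RNA per cell cannot be told apart.

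At rest, control macrophages held each of the 6 genes at a level well above that in KO cells. Cmbl had 12.7, 14.6, 13.7 and 14.9 rescaled FPKM in the untreated control libraries 1 to 4, and 1.22, 1.43, 0.990 and 1.52 in the KO libraries. Sh2d1b1 had 6.44, 7.81, 7.12 and 5.77 in control, and 0.40, 0.599, 0.346 and 0.607 in KO libraries. These 2 genes kept 9.21% and 7.20% of the control mean in KO cells, the smallest shares of the 6. Sort1 had 24.6, 22.9, 28.2 and 27.8 in control, and 3.96, 5.84, 6.48 and 4.88 in KO libraries, where its mean was 20.4% of control. Kctd12b, Unc119 and Bcap31 kept 27.7%, 31.7% and 33.5%. Bcap31 was the most abundant of the 6 per length, with a control mean of 198 ± 30.3 (SD, n = 4) rescaled FPKM, and Sh2d1b1 the least, with 6.78 ± 0.875. Between them, Sort1 stood at 25.9, Cmbl at 14.0, Unc119 at 12.1 and Kctd12b at 11.3, and the ranges of Unc119 and Kctd12b overlapped in the control libraries.

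On the log2(rescaled FPKM + 1) scale, which understates the change of low genes, the untreated difference KO minus control was -2.71 ± 0.11 (SE) for Cmbl, -2.38 ± 0.11 for Sh2d1b1 and -2.11 ± 0.16 for Sort1. It was -1.57 for both Bcap31 and Kctd12b and -1.46 ± 0.12 for Unc119. Ordered from the most negative difference, the 6 genes held ranks 2, 3, 4, 8, 9 and 12 of all genes tested. Rank 1 was Rn45s, a ribosomal RNA precursor listed at 0 in 5 libraries, with -3.73 ± 1.66. Cdkn1c, Slco2b1, Nr1h3, F7 and Vsig8 lay between the named genes, with differences of -1.90, -1.61, -1.60, -1.54 and -1.51. Nr1h3 encodes the oxysterol receptor LXRα and F7 a coagulation factor. The nearest gene below Unc119 was Mgll, monoglyceride lipase, with -1.44. Over all genes, 2.58% were lower in untreated KO cells at an adjusted p under 0.05; this contrast chose the genes, so nothing is read from it. The plot of levels by library shows each of these groups.

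**Figure D1:**
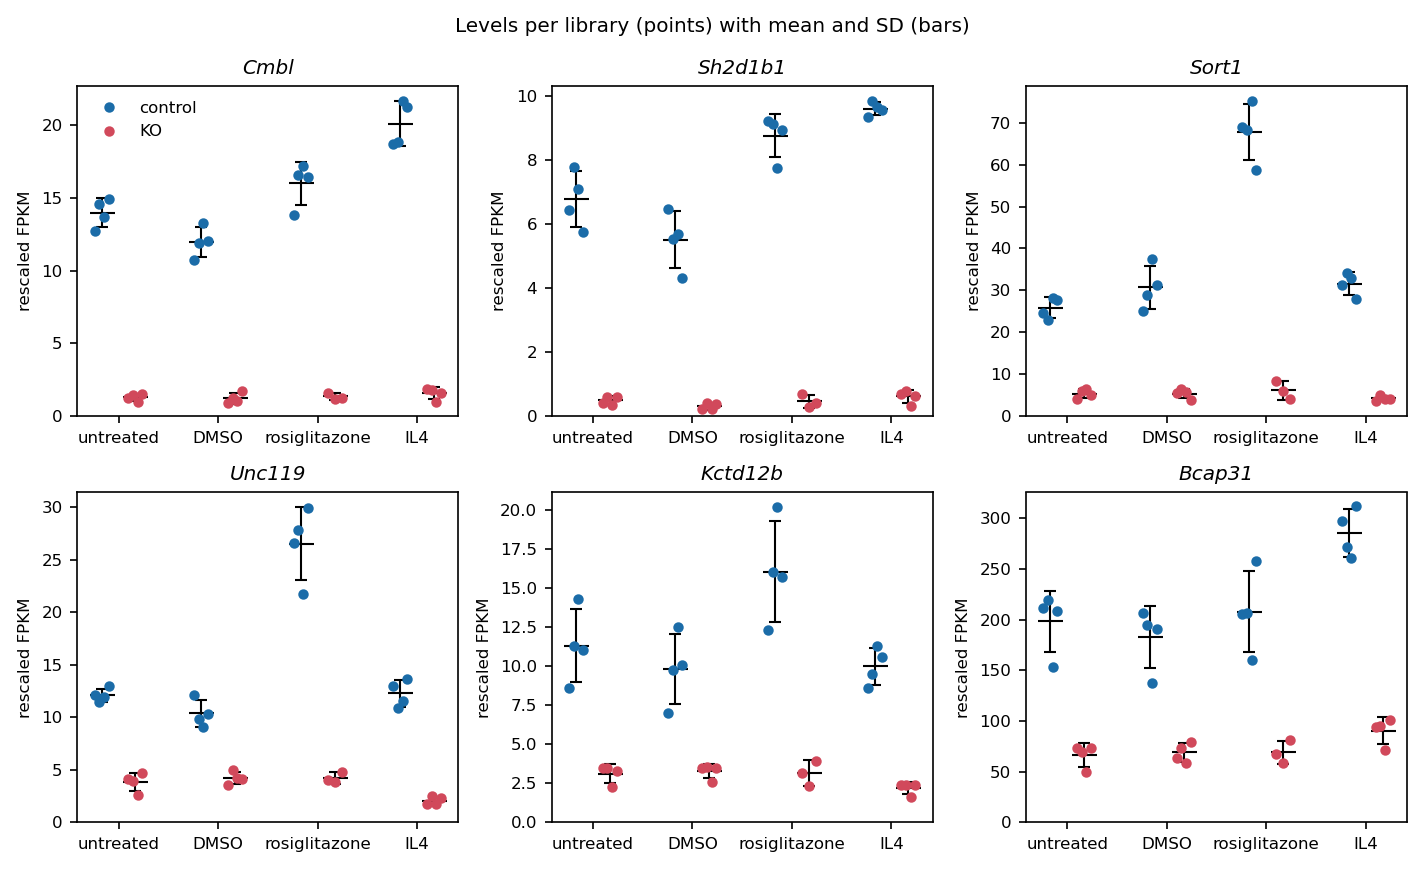
Rescaled FPKM (linear axis from 0) of each gene in every library of the 8 groups, control in blue and KO in red; points are libraries, bars the mean and SD (n = 4, and 3 for KO rosiglitazone). KO points stay low in all 4 treatments, while control points of Sort1 and Unc119 stand highest with rosiglitazone, at means of 67.8 and 26.5.

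The promoters of the chosen genes are shown because PPARγ pairs bind a direct repeat of a hexamer with 1 base of any kind between the copies (DR1, here 2 copies of AGGTCA). A RefSeq table on build GRCm38.p6 held entries for 4 of the 6 genes, all but Sort1 and Kctd12b. The 250 bases before the start were searched on both strands, and the capitals mark the window closest to DR1. Unc119 has 3 listed starts, and the first is shown.
Cmbl chr15:31568583-31568832 (+): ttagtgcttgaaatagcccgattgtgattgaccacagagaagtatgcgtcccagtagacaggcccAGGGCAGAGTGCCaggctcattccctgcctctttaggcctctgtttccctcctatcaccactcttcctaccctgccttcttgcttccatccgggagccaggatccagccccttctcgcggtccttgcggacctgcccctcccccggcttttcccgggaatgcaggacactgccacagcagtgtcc
Sh2d1b1 chr1:170277068-170277317 (+): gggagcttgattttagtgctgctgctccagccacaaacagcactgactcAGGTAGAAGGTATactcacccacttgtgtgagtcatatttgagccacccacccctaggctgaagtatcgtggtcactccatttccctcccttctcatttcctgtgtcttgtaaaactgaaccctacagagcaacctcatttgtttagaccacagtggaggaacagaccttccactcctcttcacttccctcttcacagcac
Unc119 chr11:78343245-78343494 (+): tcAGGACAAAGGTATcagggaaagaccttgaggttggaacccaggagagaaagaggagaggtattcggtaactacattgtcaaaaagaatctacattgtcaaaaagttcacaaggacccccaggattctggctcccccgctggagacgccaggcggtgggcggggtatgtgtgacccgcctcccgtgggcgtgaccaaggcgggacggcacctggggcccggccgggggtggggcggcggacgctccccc
Bcap31 chrX:73716205-73716454 (-): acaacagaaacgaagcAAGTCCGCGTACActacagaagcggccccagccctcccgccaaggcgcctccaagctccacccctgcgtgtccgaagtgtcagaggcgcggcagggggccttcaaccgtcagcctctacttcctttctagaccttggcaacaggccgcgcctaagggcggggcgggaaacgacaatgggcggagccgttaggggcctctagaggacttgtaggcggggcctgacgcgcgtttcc
None of the 4 stretches held the full repeat, which 0.0335% of 32851 promoters of the same length held. The closest window of Unc119 differed from it at 3 positions, and 21.3% of all promoters held a window with at most 3 differences. Cmbl and Sh2d1b1 had a window with 4 differences and Bcap31 one with 5; 74.5% of promoters held one with at most 4 and 99.6% one with at most 5. The single hexamer AGGTCA, on either strand, was in 14.0% of promoters and in none of these 4 stretches; the other 2 starts of Unc119, not printed, held it 1 time each, with a closest window at 4 differences from DR1. A match is a description of letters, and no match says only that these letters are not in this window.

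The loss seen at rest was also present in each treated condition. All 6 genes were lower in KO than in control cells with DMSO, with rosiglitazone and with IL4, and in none of these comparisons did a KO library reach the lowest control library. The median difference over the 6 was -1.85 with DMSO, -2.57 with rosiglitazone and -2.39 with IL4, against medians within 0.01 of 0 over all genes. For comparison, 2.20% of all tested genes were lower in KO cells with DMSO, 6.68% with rosiglitazone and 5.77% with IL4 (limma, adjusted p under 0.05). Groups without overlap, KO below control, occurred in 3.94%, 8.97% and 9.09% of all genes. In each of the 3 comparisons all 6 genes also passed under every other setting and with any single library left out. The calls of Sh2d1b1 are counted here but not read as a result, since it passed the filter through control libraries alone.

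With DMSO, Cmbl had 10.7, 11.9, 13.3 and 12.1 rescaled FPKM in control libraries and 0.892, 1.25, 1.00 and 1.71 in KO libraries. The lowest control library was 6.26 times the highest KO library. Its log2 difference was -2.56 ± 0.11 with DMSO, -2.86 ± 0.12 with rosiglitazone and -3.06 ± 0.11 with IL4, at adjusted p of 3.93e-15, 6.69e-16 and 2.83e-17. Sh2d1b1 had 6.48, 5.55, 5.71 and 4.33 in control and 0.216, 0.403, 0.205 and 0.378 in KO libraries with DMSO. The KO mean was 5.45% of control with DMSO, 5.23% with rosiglitazone and 6.34% with IL4, the lowest share of the 6 genes in each. Its differences were -2.32, -2.75 and -2.73, each ± 0.11 (adjusted p at most 5.73e-15). In KO cells no library of Sh2d1b1 reached 1 FPKM, the highest being 0.788 with IL4. It passed the filter through control libraries alone, so the filter favoured its lower calls in KO cells and nothing is read from them.

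The share of the control mean left in KO cells was lower with rosiglitazone and with IL4 than with DMSO for every gene but Sh2d1b1. Cmbl stood at 10.1% of control with DMSO, 8.36% with rosiglitazone and 7.71% with IL4. Sort1 stood at 17.3% of control with DMSO, 9.03% with rosiglitazone and 13.3% with IL4, with differences of -2.33 ± 0.16, -3.32 ± 0.17 and -2.65 ± 0.16 (adjusted p at most 5.14e-11). Unc119 stood at 40.8%, 15.9% and 16.7%, with differences of -1.12, -2.39 and -2.12 (SE 0.12 to 0.13, adjusted p at most 3.46e-07). By size of decrease it ranked 27 of all genes with DMSO and 9 with rosiglitazone. Bcap31 kept 37.8%, 33.4% and 31.7%, with differences of -1.38, -1.56 and -1.65 (SE 0.16 to 0.17, adjusted p at most 8.26e-07). Kctd12b kept 33.2%, 19.6% and 22.0%, with differences of -1.33 ± 0.16, -2.04 ± 0.17 and -1.78 ± 0.16 (adjusted p at most 2.56e-06).

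**Figure D2:**
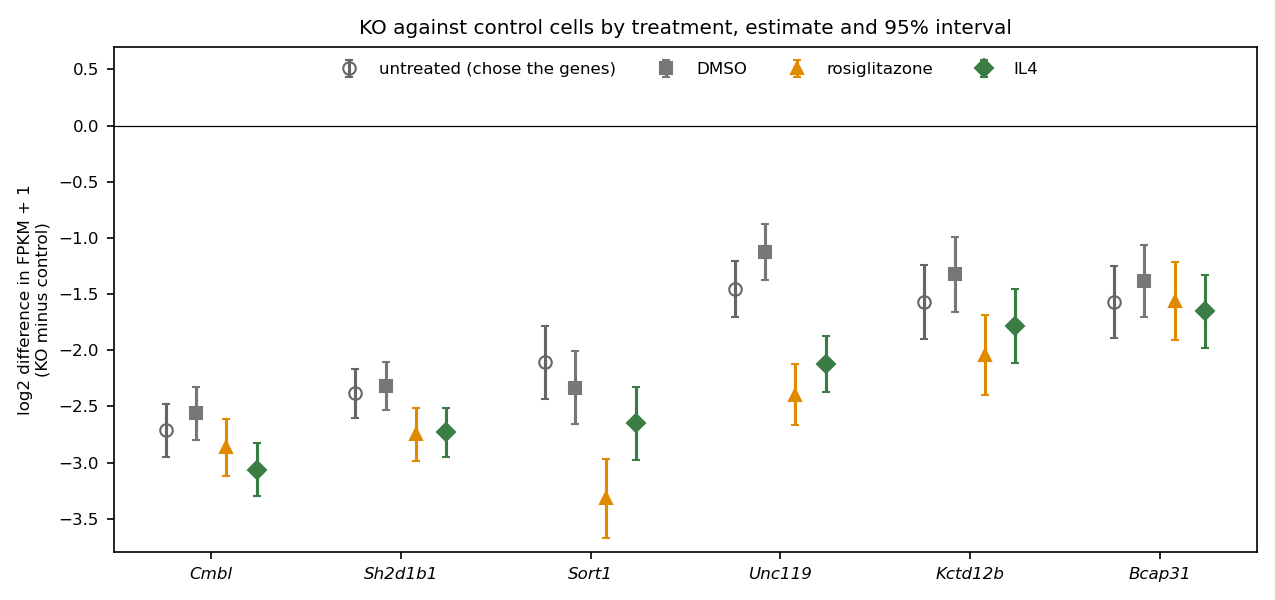
Log2 difference in rescaled FPKM + 1, KO minus control, of each gene in the 4 treatments, with 95% intervals from limma; open circles are the untreated cells that chose the genes. All lie below 0, from -1.12 (Unc119 with DMSO) to -3.32 (Sort1 with rosiglitazone).

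Rosiglitazone added RNA of 5 of the 6 genes in control macrophages. Unc119 and Sort1 rose most, 2.56-fold and 2.21-fold over DMSO, followed by Kctd12b at 1.63-fold, Sh2d1b1 at 1.59-fold and Cmbl at 1.34-fold. Bcap31 did not pass, with a ratio of 1.14. Over all genes, 3.11% were higher with rosiglitazone in control cells. The median difference over the 6 was 0.63, against 0.00 over all genes.

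Unc119 had 12.1, 9.86, 9.11 and 10.4 rescaled FPKM in control libraries with DMSO and 26.6, 27.8, 21.7 and 29.9 with rosiglitazone. Every rosiglitazone library stood above every DMSO library, which held for 5.58% of all genes. The log2 difference was 1.27 ± 0.12 (adjusted p 3.46e-08), the 17th highest of all genes tested. Sort1 had 25.1, 29.0, 37.5 and 31.2 with DMSO and 69.1, 68.2, 75.2 and 58.8 with rosiglitazone, again without overlap, and its difference was 1.13 ± 0.16 (adjusted p 2.51e-05). Sh2d1b1 had 9.23, 9.13, 7.77 and 8.95 with rosiglitazone, all above the 4.33 to 6.48 with DMSO, a difference of 0.59 ± 0.11 (adjusted p 6.32e-04; 0.0867 with 0.1 in place of 1 FPKM added).

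The other 2 calls were closer to the threshold: of 22 alternative fits, Kctd12b passed in 18 and Cmbl in 10. Both calls stood in the fits with a term for each mouse. Kctd12b had 6.99, 9.74, 12.5 and 10.0 with DMSO and 12.3, 16.0, 20.2 and 15.7 with rosiglitazone. These groups overlapped, since DMSO library 3 exceeded rosiglitazone library 1, but each numbered library was higher with rosiglitazone than its namesake with DMSO. The difference was 0.66 ± 0.16 (adjusted p 0.0136), and the adjusted p was 0.0571 when the fit held only the groups compared, 0.201 on the FPKM as deposited, 0.0671 without DMSO library 1 and 0.0630 without rosiglitazone library 3. Cmbl had 13.8, 16.6, 17.2 and 16.5 with rosiglitazone, against 10.7 to 13.3 with DMSO, and its difference was 0.39 ± 0.11 (adjusted p 0.0467). That call was lost when any single library other than DMSO library 3 or rosiglitazone library 1 was left out (adjusted p up to 0.130), with TMM factors (0.0506), without the 3 libraries of lowest sum (0.0548), with no filter (0.0863), with 0.1 FPKM added (0.221) and on the FPKM as deposited (0.813). Bcap31 had 206, 195, 138 and 191 with DMSO and 206, 206, 161 and 258 with rosiglitazone; the groups overlapped, and the difference was 0.18 ± 0.16 (95% interval -0.14 to 0.50, adjusted p 0.713).

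In KO macrophages rosiglitazone changed none of the 6 genes past the threshold. The largest difference was that of Sh2d1b1, 0.16 ± 0.11, and the 95% intervals ranged from -0.41 (the lower bound of Kctd12b) to 0.50 (the upper bound of Sort1). KO libraries with rosiglitazone had 8.44, 5.99 and 3.93 rescaled FPKM of Sort1, and 4.00, 3.82 and 4.82 of Unc119. These overlap the DMSO ranges of 3.76 to 6.46 and 3.52 to 5.02. Over all 10327 genes, 0 passed in this comparison with limma, 151 had an unadjusted p under 0.05, and 1 passed with mice as a random effect. None of the 6 was among the 151, the smallest unadjusted p over the 6 being 0.174.

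The response to rosiglitazone differed between the genotypes for Unc119 and Sort1. The difference, KO response minus control response, was -1.27 ± 0.18 for Unc119 (adjusted p 8.47e-05) and -0.98 ± 0.23 for Sort1 (adjusted p 0.0383). Such a negative difference passed for 0.697% of all genes. Sort1 kept the call only without control DMSO library 3, KO DMSO library 4, control rosiglitazone library 4 or KO rosiglitazone library 1, losing it in the other 11 fits that left out a library and in 5 other settings (adjusted p up to 0.226); without KO rosiglitazone library 3 its value was -0.75 (adjusted p 0.170). The values of Kctd12b, -0.72 ± 0.24, and Sh2d1b1, -0.43 ± 0.16, did not pass, nor did those of Cmbl, -0.30 ± 0.17, and Bcap31, -0.18 ± 0.23. With a term for each mouse, where KO rosiglitazone libraries were matched to the mouse numbered 1 higher, Kctd12b passed at -0.68 ± 0.09 (adjusted p 2.17e-05) and Sh2d1b1 at -0.44 ± 0.12 (adjusted p 0.0372). The added 1 FPKM compresses the fold of a gene as low as Sh2d1b1 in KO cells: the ratio of its means was 1.53 in KO and 1.59 in control cells, and with 0.1 FPKM added its difference between the genotypes was -0.22.

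**Figure D3:**
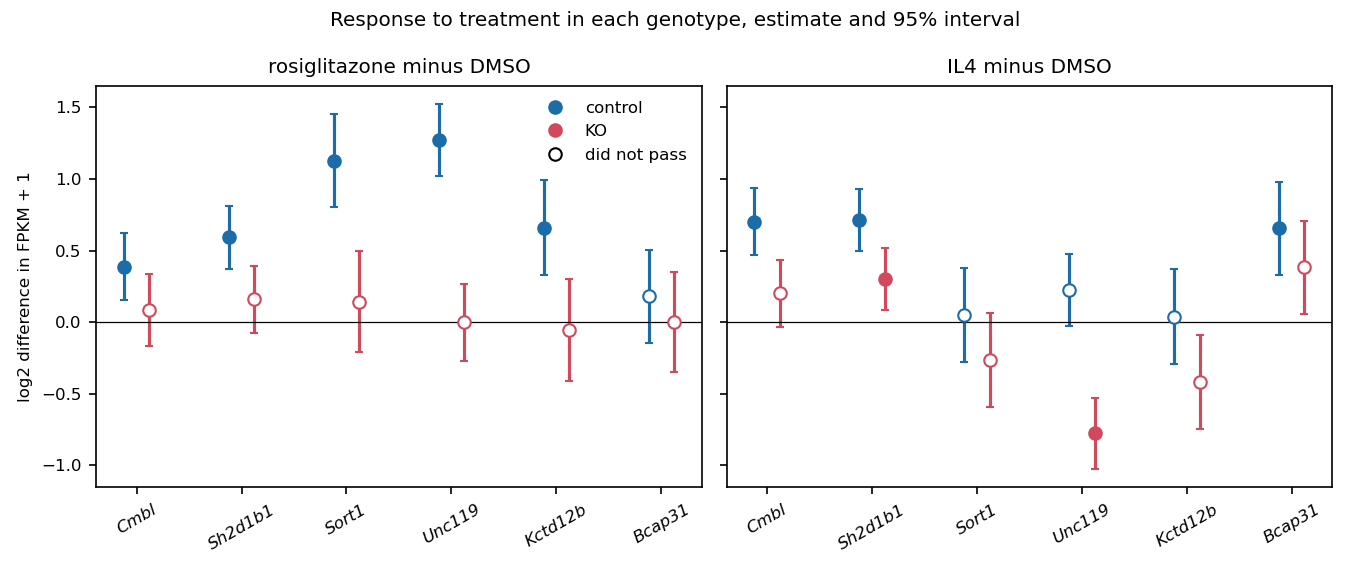
Log2 difference in rescaled FPKM + 1 of each gene for rosiglitazone minus DMSO (left) and IL4 minus DMSO (right), control in blue and KO in red, with 95% intervals from limma; filled points passed at an adjusted p under 0.05 and open points did not. With rosiglitazone 5 control points and no KO point are filled; with IL4 Unc119 in KO cells lies at -0.78, below its control value of 0.23.

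IL4 raised 3 of the 6 genes in control macrophages, and rosiglitazone had raised 2 of these as well. In control macrophages Cmbl, Sh2d1b1 and Bcap31 rose 1.68-fold, 1.74-fold and 1.56-fold over DMSO, while Sort1, Unc119 and Kctd12b, which rosiglitazone had raised, did not pass. The vehicle libraries served as the reference, because the untreated ones chose the genes; the labels do not say that IL4 cells held DMSO. IL4 raised 16.1% of all tested genes in control cells, so 3 of 6 is a count among a broad response. In control cells, every IL4 library stood above every DMSO library for 16.9% of all genes.

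Cmbl had 18.7, 18.8, 21.7 and 21.3 rescaled FPKM in control libraries with IL4, all above the DMSO range of 10.7 to 13.3. The log2 difference was 0.70 ± 0.11 (adjusted p 3.01e-05). Sh2d1b1 had 9.36, 9.84, 9.67 and 9.57, all above the 4.33 to 6.48 with DMSO, with a difference of 0.71 ± 0.11 (adjusted p 9.10e-06). Bcap31 had 297, 272, 261 and 312, each above the highest DMSO library at 206, with a difference of 0.66 ± 0.16 (adjusted p 0.00247; 0.196 on the FPKM as deposited). Sort1 stood at 31.4, 34.0, 33.0 and 27.9, within the DMSO range, with a difference of 0.05 ± 0.16 (95% interval -0.27 to 0.38). Kctd12b differed by 0.04 ± 0.16. Unc119 differed by 0.23 ± 0.12 (adjusted p 0.169), and passed with the mouse term (adjusted p 0.0491). Against the untreated cells, as a description, the IL4 ratios of Cmbl, Sh2d1b1 and Bcap31 were 1.44, 1.42 and 1.44.

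In KO macrophages IL4 lowered Unc119. Sh2d1b1 passed as higher, but none of its KO libraries reached 1 FPKM, so that call is counted and not read as a result. Unc119 had 3.52, 5.02, 4.24 and 4.13 rescaled FPKM in KO libraries with DMSO and 1.71, 2.51, 1.72 and 2.29 with IL4. The groups did not overlap, the IL4 mean was 0.487 of the DMSO mean, and the difference was -0.78 ± 0.12 (adjusted p 2.46e-05). Lower calls made up 10.2% of all genes in this comparison and higher calls 12.3%. Every IL4 library lay below every DMSO library for 10.0% of all genes. Sh2d1b1 had 0.698, 0.788, 0.321 and 0.630 with IL4 against 0.205 to 0.403 with DMSO, groups that overlap at IL4 library 3. Its difference was 0.30 ± 0.11 (adjusted p 0.0403), and the call was lost without DMSO library 1 or 3 or IL4 library 1, 2 or 4 (adjusted p up to 0.136), with no filter (0.0656), with a filter of at least 5 FPKM (0.0505) and on the FPKM as deposited (0.353).

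The remaining 4 genes did not pass with IL4 in KO cells. Kctd12b had 2.38, 2.37, 1.63 and 2.40 with IL4, all below the 2.59 to 3.54 with DMSO, with a difference of -0.42 ± 0.16 (adjusted p 0.0622). Bcap31 had 94.3, 94.7, 71.6 and 101 with IL4 against 59.0 to 79.8 with DMSO, a difference of 0.38 ± 0.16 (adjusted p 0.0816). With the mouse term both passed, at adjusted p of 5.49e-06 for Kctd12b and 3.01e-04 for Bcap31. Cmbl differed by 0.20 ± 0.11 and Sort1 by -0.26 ± 0.16, with intervals that include 0. Without DMSO library 4 or IL4 library 3, Cmbl (adjusted p 0.0482 and 0.0275) and Bcap31 (0.0493 and 0.0305) passed, and without DMSO library 3 so did Kctd12b (0.0457). Kctd12b also passed with 0.1 FPKM added (0.0341), with a filter of at least 5 FPKM (0.0407) and with only the groups compared in the fit (0.0361).

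The IL4 response differed between the genotypes for Unc119 alone at the threshold. Its difference was -1.003 ± 0.17 (adjusted p 0.00127), the value being 0.23 in control and -0.78 in KO cells, and 0.552% of all genes passed in this direction. On the FPKM as deposited its adjusted p was 0.455. With the mouse term Cmbl at -0.50 ± 0.11 (adjusted p 0.0133), Kctd12b at -0.46 ± 0.08 (adjusted p 0.00158) and Sh2d1b1 at -0.41 ± 0.11 (adjusted p 0.0415) passed as well. For Sh2d1b1 that value rests on the added 1 FPKM: IL4 multiplied its mean 2.03-fold in KO and 1.74-fold in control cells, and with 0.1 FPKM added the difference between the genotypes was 0.00. Bcap31 at -0.27 ± 0.22 and Sort1 at -0.32 ± 0.22 did not pass in either fit.

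The gap at rest and the added response are set side by side on the scale with 1 FPKM added. Cmbl had an untreated gap of -2.71, with a rosiglitazone response of 0.39 in control cells. Unc119 had a gap of -1.46 with a response of 1.27. Sort1 combined a gap of -2.11 with a response of 1.13, and Bcap31 a gap of -1.57 with 0.18. Sh2d1b1 had a gap of -2.38 with 0.59, and Kctd12b a gap of -1.57 with 0.66. The order of the gaps depends on the added value: with 0.1 FPKM added, Sh2d1b1 (-3.57) lay below Cmbl (-3.36) and Unc119 (-1.66) below Bcap31 (-1.58). With IL4 the responses in control cells were 0.71 for Sh2d1b1, 0.70 for Cmbl and 0.66 for Bcap31. They were 0.23 for Unc119, 0.05 for Sort1 and 0.04 for Kctd12b. In KO cells no ligand or cytokine brought a gene back to its control level: the highest KO library over the 3 treatments stood at 1.86 for Cmbl, 8.44 for Sort1 and 101 for Bcap31, against lowest control libraries of 10.7, 25.1 and 138. These comparisons share control libraries and the estimate of spread, so their values are given side by side only.

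The replicate numbers left a mark on the genes. Control library 1 was the lowest of its group for Cmbl and for Kctd12b in 4 of 4 treatments. Control library 3 was the highest for Kctd12b and the lowest for Bcap31 in 4 of 4, so in control cells the 2 genes ran against each other over the numbers. In KO cells library 3 was the lowest for Sh2d1b1, Kctd12b and Bcap31 in 3 of 3 treatments outside rosiglitazone. Kctd12b and Bcap31 both lie on chromosome X; Cmbl lies on chromosome 15, Sh2d1b1 on 1, Sort1 on 3 and Unc119 on 11. The Y-linked gene Ddx3y had 16.4 to 19.7 rescaled FPKM in control library 1 of each treatment, 18.4 to 20.6 in KO library 2 outside rosiglitazone and 18.6 in KO rosiglitazone library 1, and at most 0.0288 elsewhere, so 1 mouse per genotype was male. With a term for male mice, chosen after seeing the data, the adjusted p of Cmbl for rosiglitazone in control cells was 0.0521.

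**Figure D4:**
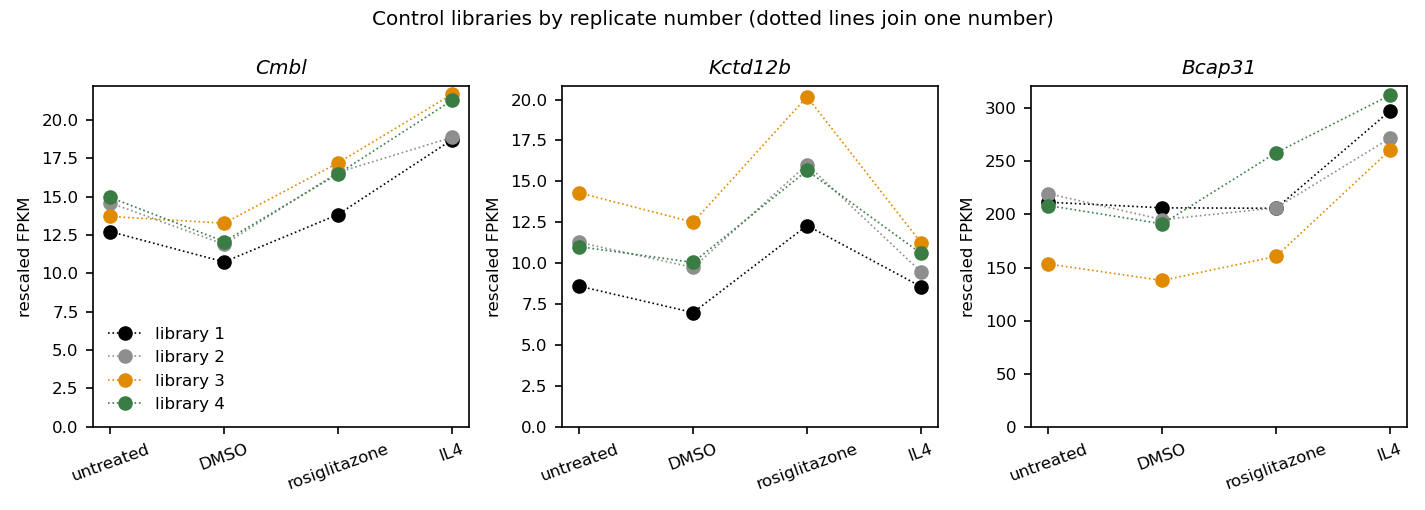
Rescaled FPKM (linear axis from 0) of Cmbl, Kctd12b and Bcap31 in control libraries, by replicate number over the 4 treatments; dotted lines join libraries with the same number. Library 1 lies lowest for Cmbl and Kctd12b, and library 3 lies highest for Kctd12b and lowest for Bcap31, in 4 of 4 treatments.

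For each gene, the 3 tested genes with the highest Pearson correlation of log2(rescaled FPKM + 1) over the 31 libraries had r of 0.958 to 0.993. The libraries fall into a control and a KO cluster and share mice, so r within a genotype is given too, as a description. Cmbl and Sh2d1b1 were each other's nearest gene, with r of 0.783 over the 16 control and 0.863 over the 15 KO libraries. Next for both came Slc37a2, a sugar phosphate exchanger, and Nr1h3, whose likeness was weak within KO libraries: r with Cmbl was 0.920 and 0.757 in control but 0.197 and 0.0492 in KO libraries, and r with Sh2d1b1 was 0.820 and 0.882 against 0.354 and 0.324. Sort1 was most like Arhgap25 (0.870 in control and 0.361 in KO libraries), Tmcc3 (0.825 and 0.433) and Ly75, the last, an endocytic lectin receptor, with r of 0.984 in control and 0.574 in KO libraries. Unc119 was most like Plin2, which coats lipid droplets, with r of 0.970 in control and 0.791 in KO libraries. Senp2 (0.877 and 0.769) and Wrb (0.862 and 0.780) came next. Kctd12b was most like Ncoa4, a receptor for the autophagy of ferritin (0.880 and 0.955), then Klhl9 (0.905 and 0.608) and Snx10 (0.832 and 0.897). Bcap31 was most like Cmbl (0.627 and 0.743), Sh2d1b1 (0.617 and 0.668) and Trim29 (0.692 and 0.802). Within control cells, Sort1 and Unc119 had an r of 0.845, whereas Kctd12b and Bcap31 had -0.381.

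Genes that act with the 6 proteins were described by lists. For the lists on SLAM, sortilin, UNC119, KCTD and BCAP31 biology, the median difference between KO and control cells lay between -0.08 and 0.07 in each treatment, against medians within 0.01 of 0 over all genes. Higher calls in KO cells made up 1.34% of all genes with DMSO, 5.05% with rosiglitazone and 5.06% with IL4. Of 13 tested SLAM receptors, adaptors and their effectors, 1 was lower and 0 higher in KO cells with DMSO, 3 lower and 1 higher with rosiglitazone, and 2 lower and 2 higher with IL4. The lower one throughout was Sh2d1b2, the neighbour and near copy of Sh2d1b1. It passed the filter through control libraries with rosiglitazone or IL4 alone, so its calls follow from the filter and nothing is read from them. Its mean was 0.424 rescaled FPKM in untreated control cells, 0.490 with DMSO, 1.16 with rosiglitazone and 1.01 with IL4, and at most 0.0600 in any KO group. Slamf9 was also lower with rosiglitazone (-0.62) and IL4 (-0.46), while Slamf7 was higher with IL4 (0.37). Sh2d1b2 shares 13.4% of the 50-base stretches of Sh2d1b1 in the annotated transcripts (334 of 2495), so reads could be split between them and both values are uncertain in that measure.

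Of 18 tested genes of the sortilin family, its cargo and its sorting machinery, 1 was lower with DMSO, and 3 were lower with rosiglitazone and with IL4 each. Sorl1, a receptor related to sortilin, was lower in KO cells in each treatment (-0.93, -1.06 and -1.25), and Lpl, lipoprotein lipase, with rosiglitazone (-0.97) and IL4 (-0.96). Grn, progranulin, was higher with IL4 (0.31). None of the 18 passed for rosiglitazone in control cells. Of 14 tested genes of the UNC119 carrier and its clients, Lyn, a Src family kinase, was lower in KO cells with each treatment (-0.33, -0.26 and -0.37), and Src was higher with rosiglitazone (1.11) and IL4 (1.32). Unc119b, the paralogue of Unc119, was higher with IL4 (0.26 ± 0.06).

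None of 16 tested KCTD genes was lower in KO cells in any treatment, and 1 each was higher with rosiglitazone (Kctd13, 0.30) and with IL4 (Kctd17, 0.28). Kctd12, which shares no 50-base stretch with Kctd12b, had 19.3 ± 6.46 rescaled FPKM in control and 16.0 ± 2.64 in KO cells with DMSO. Of 22 tested partners of BCAP31 and genes of export from the endoplasmic reticulum, 0, 1 and 1 were lower in KO cells with DMSO, rosiglitazone and IL4. With IL4, 11 of the 22 were higher and 1 lower in control cells, and 10 were higher in KO cells, where shares over all genes were 16.1% higher and 12.3% lower in control cells and 12.3% higher in KO cells; Lman1, a cargo receptor of this export, rose by 0.63 in control cells. Of 11 tested hydrolases, 3, 5 and 5 were lower and 0 higher in KO cells with DMSO, rosiglitazone and IL4, with medians of -0.05, -0.14 and -0.15. Lower calls over all genes made up 2.20%, 6.68% and 5.77%. Both counts of 5 include Afmid, whose mean was 1.10 in control cells with IL4, under 1 in the other groups and at most 0.507 in KO groups. The filter favoured its lower calls, so nothing is read from them. Abhd12, a serine hydrolase of lysophospholipids, was lower by the widest margin (-0.72, -1.59 and -0.98) and rose with rosiglitazone in control cells (0.96 ± 0.08). Of 12 tested PPAR target genes, 7, 9 and 10 were lower in KO cells (medians -0.95, -1.84 and -1.34), beside the same shares over all genes. The 10 include Gpd1, whose mean was 2.44 in control cells with IL4 and at most 0.661 in any other group. The filter favoured that call, so nothing is read from it. In control cells 7 rose with rosiglitazone, among them Angptl4 (3.14 ± 0.15) and Plin2 (1.35 ± 0.10), where 3.11% of all genes were higher.

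The genes next to the 6 on the chromosome gave smaller values. Of the nearest tested neighbours on each side, 12 in all, Sh2d1b2 had the values given above and Pigs beside Unc119 was lower in KO cells with rosiglitazone (-0.40, adjusted p 0.00150). Ropn1l beside Cmbl was higher with rosiglitazone (0.43), and Psrc1 beside Sort1 (0.69) and Slc6a8 beside Bcap31 (0.40) were higher with IL4. Pigs also rose with rosiglitazone in control cells, by 0.40. The annotation places an antisense gene, Gm12523, and an unassigned transcript, Gm43099, over Sort1; the sources used here do not say whether the counting used strand, and neither was tested.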

How the data were processed

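RNA of thioglycollate-elicited peritoneal macrophages of control and PPARgammaMPKO mice was sequenced in 31 libraries from a stranded total RNA kit, per the labels' protocols. The authors deposited 1 table of FPKM values per gene symbol; TopHat2, featureCounts, edgeR and mm9 are named in the submitters' processing notes, without versions or roles. Whether the counting used strand is not stated in the sources used here. Of the 24302 symbols, 25 that read as dates were left out, and 0 were duplicated; 0 columns belonged to no listed sample.

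Each library was divided by its median ratio to the geometric means of the genes. A filter kept 10327 genes, those reaching 1 FPKM in 3 libraries or more, and these entered 1 limma fit (limma 3.58.1 in R 4.3.3) on log2(rescaled FPKM + 1) with a mean per group over all 31 libraries and a trended prior. Tests were two-sided with 26.5 degrees of freedom, and p was adjusted by Benjamini and Hochberg over all genes, with a threshold of 0.05. The fit was tested on simulated data with known changes. TMM factors in an alternative were computed on the FPKM. Read totals are not given, so the precision is that of the spread between libraries.

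Genes named beside the 6 are the 3 with the highest correlation to each, those ranked between and just below them in untreated cells, the nearest tested neighbours, list genes that passed, with up to 3 more per comparison, and Pparg. The 6 genes and the lists were chosen with earlier results of these data known. Promoters come from RefSeq on GRCm38.p6, another build than that of the files, and orders of neighbouring genes from GENCODE on that build.

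Equal numbers within a genotype were taken as 1 mouse, since the design text gives 4 mice per genotype: outside the KO rosiglitazone group, residuals of 21 of 28 libraries correlated best with a library of their own number, whereas 0 of the 3 KO rosiglitazone libraries did and 3 of 3 did with the number 1 higher. Fits with a mouse term therefore match these 3 to the number 1 higher, and their values stand beside a result where the call changes. Alternatives were other scalings, pseudocounts and filters, other priors, fewer libraries, replicate blocks and, added after seeing the data, a term for male mice. The result of 1 gene is not reported here.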

Additional observations from a re-analysis of the deposited data

Results flagged for a closer look

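The rosiglitazone response differed between the genotypes for Unc119 (-1.27, KO minus control, log2 scale) and Sort1 (-0.98), and the IL4 response for Unc119 (-1.003), each by a test of the difference itself with limma. In each case the KO response was the lower of the pair.

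Among 42 groups of 4 libraries, 3 held a library far from the other 3: its gap to the nearest was above Dixon's 95% critical share of the range of the group, which chance exceeds in about 1 in 20 groups. Kctd12b had 2.59 rescaled FPKM in KO DMSO library 3, against 3.45 to 3.54 in the others. It had 1.63 in KO IL4 library 3, against 2.37 to 2.40. Bcap31 had 153.3 in untreated control library 3, against 208 to 220. Both Kctd12b values come from KO libraries numbered 3, which also held the lowest Kctd12b level of the untreated KO cells.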

How the results depend on the processing

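Counts are of the 6 genes that passed. KO against control stayed at 6 of 6 with DMSO, rosiglitazone and IL4 under all alternatives, and rosiglitazone in KO cells at 0. The 6 include Sh2d1b1, which passed the filter through control libraries alone. On the FPKM as deposited the counts were 3 for rosiglitazone in control cells, 1 for IL4 in KO cells, 1 for the difference in the rosiglitazone response and 0 for that in the IL4 response, against 5, 2, 2 and 1 in the fit reported. IL4 in control cells gave 2 as deposited, against 3 in the fit reported, since Bcap31 no longer passed. Adding 0.1 FPKM gave 3 for rosiglitazone in control cells and 1 for the difference in its response. That difference gave 1 also with no filter, with at least 5 FPKM in 3 libraries and with only the groups compared. IL4 in KO cells gave 1 with no filter. Leaving out 1 library gave 3 to 5 for rosiglitazone in control cells, 1 to 4 for IL4 in KO cells and 1 to 2 for the difference in the rosiglitazone response. No value that passed in the fit reported changed sign; the difference of Sh2d1b1 in the IL4 response, which passed at -0.41 with the mouse block, was 0.00 with 0.1 FPKM added.

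With a replicate block of mouse within genotype, KO rosiglitazone numbers moved up by 1, the counts were 4 for IL4 in KO cells, 4 for the difference in the rosiglitazone response and 4 for that in the IL4 response, and the random mouse effect gave 4, 4 and 4 as well (consensus correlation 0.47); in both, IL4 in control cells gave 4 in place of 3. The block of mouse as titled gave 4 for IL4 in KO cells, 3 for the difference in the rosiglitazone response and 2 for that in the IL4 response, and the number as a plain term gave 3 for IL4 in KO cells. The other counts did not change under a block. Over all genes, the mouse block raised the calls for rosiglitazone in control cells from 461 to 1387, for the difference in its response from 83 to 369 and for that in the IL4 response from 81 to 376; as deposited they were 91, 19 and 27. As deposited, the median of all genes shifted by -0.20 for KO against control untreated cells, 0.11 with DMSO and 0.12 with IL4, and the share of higher calls moved from 40.6% to 8.72% untreated, from 37.8% to 52.9% with DMSO, from 46.7% to 65.0% with IL4 and from 69.6% to 87.9% for rosiglitazone in control cells. The causes were not tested.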

Other observations

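In KO cells DMSO and untreated libraries overlapped for each of the 6 genes, and so did those of control cells. The DMSO to untreated ratio of means in control cells ran from 0.813 (Sh2d1b1) to 1.19 (Sort1), and in KO cells from 0.616 (Sh2d1b1) to 1.10 (Unc119). Sh2d1b1 therefore had the lowest ratio in both genotypes, at levels of 0.488 and 0.301 rescaled FPKM in KO cells. Trim29, among the 3 genes most like Bcap31, had 2.37 rescaled FPKM in untreated control and 0.753 in untreated KO cells. Slc37a2 had 77.4 and 33.1, and Ncoa4 101.1 and 50.7.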
